A study of Mus musculus with 8 samples.

Results

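The 9 genes described here encode the sensors of double-stranded RNA in the cytosol and the endosome, the adaptor and transcription factor they signal through, and the enzyme that edits double-stranded RNA. They were taken by name: Ifih1, Ddx58, Dhx58, Eif2ak2, Adar, Zbp1, Tlr3, Mavs and Irf3. Among the 39017 gene identifiers of the deposited count table, 37607 matched the GENCODE M21 annotation, and all 9 genes were found by symbol. Of the 9 genes, 9 passed the expression filter that left 18952 genes for testing.

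The libraries came from E13.5 mouse embryonic fibroblasts, cells grown from embryos of that stage. Mettl3, the enzyme that places N6-methyladenosine (m6A) on mRNA, was either intact (control) or removed (knockout). Poly(A) RNA was sequenced from 4 groups of 2 biological replicates each, 8 libraries in all. The control total and knockout total groups were whole-cell RNA of unstressed cells of each genotype. The control granule and knockout granule groups came from cells of each genotype that received 500 µM sodium arsenite for 30 min, after which stress granules, the cytoplasmic clusters of mRNAs stalled in translation, were enriched by centrifugation. The knockout was made by switching on Cre recombinase with 500 nM 4-hydroxytamoxifen over 48 h. Submitters recorded loss of the protein by western blot and of the modification by thin-layer chromatography after 7 days, and cells were taken the next day. The labels do not name the promoter that drives Cre, the mouse strain, the number of embryos behind the cultures, or whether control cells also received 4-hydroxytamoxifen. Fraction and arsenite changed together, so their contributions to a granule to total difference cannot be told apart.

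Long double-stranded RNA is normally scarce in the cytosol, and cells read it as a sign of viral infection. Ifih1 (MDA5) and Ddx58 (RIG-I) are RNA helicases that bind it and pass the signal to Mavs on the mitochondrial surface, which leads to activation of the transcription factor Irf3 and to interferon production, while Dhx58 (LGP2) modulates both helicases. Eif2ak2 (PKR) is a kinase that blocks translation initiation when it binds double-stranded RNA, Zbp1 binds RNA and DNA in the left-handed Z form and can start necroptosis, and Tlr3 reads double-stranded RNA inside endosomes. Adar (ADAR1) converts adenosine to inosine in double-stranded RNA, which keeps the cell's own transcripts from being read as foreign. Several of these genes, among them Ifih1, Ddx58, Dhx58, Eif2ak2, Zbp1, Tlr3 and a long form of Adar, are known to be induced by interferon. The comparison asked how these mRNAs stood in cells without Mettl3, since loss of m6A has been linked to double-stranded RNA sensing, and how they were divided between total RNA and the granule fraction.

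Coordinates are those of whole genes, exons and introns, in the GRCm38 build. Ifih1 (ENSMUSG00000026896) is at chr2:62595798-62646255 on the minus strand and Ddx58 (ENSMUSG00000040296) at chr4:40203773-40239828 on the minus strand. Dhx58 (ENSMUSG00000017830) is at chr11:100694884-100704271 on the minus strand and Eif2ak2 (ENSMUSG00000024079) at chr17:78852564-78882573 on the minus strand. Adar (ENSMUSG00000027951) is at chr3:89715022-89753446 on the plus strand, Zbp1 (ENSMUSG00000027514) at chr2:173206612-173218923 on the minus strand and Tlr3 (ENSMUSG00000031639) at chr8:45395665-45411080 on the minus strand. Mavs (ENSMUSG00000037523) is at chr2:131234063-131248025 on the plus strand and Irf3 (ENSMUSG00000003184) at chr7:44997648-45002848 on the plus strand. All 9 are protein-coding. For Adar, 16.8% of exonic bases are also exonic in Chrnb2 on the opposite strand, which stood between 0.237 and 1.31 CPM (counts scaled to library size) over the 8 libraries. The overlap with other genes was 7.32% or less for the other 8 members, and whether counting used strand is not given in the sources used here.

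Promoter sequences are shown because interferon-induced genes share a short response element near their start. The RefSeq promoter table (GRCm38.p6, 250 bases before to 50 bases after a start) had 9 entries for 7 of the 9 genes, 3 of them for Adar, and none for Dhx58 or Zbp1. Both strands were searched for GAAA, any 2 bases, then GAAA, a form of the interferon-stimulated response element, and for AANNGAAA, a form of the binding site of interferon regulatory factors. The second motif is the end of the first. Over all 27025 genes in the table, 3.99% held the first motif in a promoter and 26.7% the second, and over all 32851 promoters the shares were 3.44% and 23.9%. Of the 7 genes with an entry, Ifih1, Ddx58 and Eif2ak2 held the first motif, and Adar and Tlr3 held the second only. No match was found for Mavs, Irf3 or the other 2 Adar starts. The stretches below run 5′ to 3′ on the gene's strand with the matches in capitals. Each covers 70 bases before to 30 after the start, except those of Ifih1 and Adar, which cover bases 21 to 50 after it.
Ifih1, chr2:62646206-62646235, minus strand: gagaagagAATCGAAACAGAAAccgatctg
Ddx58, chr4:40239796-40239895, minus strand: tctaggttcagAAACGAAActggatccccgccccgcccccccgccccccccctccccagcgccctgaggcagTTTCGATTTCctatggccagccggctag
Eif2ak2, chr17:78882543-78882642, minus strand: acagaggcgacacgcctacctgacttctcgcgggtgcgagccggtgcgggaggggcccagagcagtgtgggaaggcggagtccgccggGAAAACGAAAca
Adar, the third start, chr3:89730738-89730767, plus strand: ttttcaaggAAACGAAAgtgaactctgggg
Tlr3, chr8:45410351-45410450, minus strand: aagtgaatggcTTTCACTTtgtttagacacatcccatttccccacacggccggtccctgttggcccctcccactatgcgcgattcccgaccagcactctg
Mavs, chr2:131233993-131234092, plus strand: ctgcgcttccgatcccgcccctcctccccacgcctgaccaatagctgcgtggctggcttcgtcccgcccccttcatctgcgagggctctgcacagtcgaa
Irf3, chr7:44997578-44997677, plus strand: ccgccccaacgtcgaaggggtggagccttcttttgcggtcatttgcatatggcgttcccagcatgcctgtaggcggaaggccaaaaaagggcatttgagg
The match in Ifih1 lay 33 to 42 bases after the start and that in Eif2ak2 19 to 28 bases after it. In Ddx58 the first motif lay 3 to 12 bases after the start on the opposite strand, and a second AANNGAAA ended 52 bases before it. The Adar match lay 30 to 37 bases after a start inside the gene, and the Tlr3 match 59 to 52 bases before the start on the opposite strand. A match is a description of the letters and not a site or a cause, and no match says only that these letters are not in the 300 bases searched.

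Total counts ran from 67257220 to 123508539 per library, and the lowest count of any of the 9 genes in any library was 322. Mettl3 itself stood at 25.4 and 24.9 CPM in control total, 6.0 and 7.35 in knockout total, 15.7 and 15.4 in control granule and 5.56 and 6.38 in knockout granule, lower in every knockout library than in every control library. Counts on exons outside the deleted part, or on Tox4, which overlaps 18.4% of the exonic bases of Mettl3, are included in these values. Replicates of the knockout total group differed far more than those of the other groups: the median size of the log2 ratio between the 2 replicates over all tested genes was 0.812 there, 0.363 in control total, 0.161 in control granule and 0.198 in knockout granule. All 10 fibroblast markers had a mean of at least 1 CPM, with a summed level between 6190 and 9510 CPM. Macrophage and leukocyte markers, whose cells also express these sensors, were all detected too (12 of 12 at a mean of at least 1 CPM, none at 0), with Ptprc at 16.7 to 41.8 CPM and Cd14 at 14.3 to 27.5 CPM. Their summed level was 106 to 131 CPM in control total and 84.7 to 102 in knockout total, and 84.4 to 91.8 in control granule and 107 to 113 in knockout granule. It was thus lower in knockout than in control in total RNA and higher in the granule fraction. Epithelial markers (6 of 6 at a mean of at least 1 CPM) summed to 359 to 453 CPM in control total and 153 to 184 in knockout total, and to 736 to 885 and 591 to 787 in the granule groups. Krt18 and Krt14 made up most of these sums. In total RNA Krt18 fell from 330 and 200 CPM in control to 46.9 and 87.6 in knockout. Krt14 overlapped there, at 89.0 and 125 against 109 and 51.3 CPM. Epcam, Cdh1 and Krt8 were at 4.67 CPM or less in every library. The summed level of neural markers (3 of 6) was lower in knockout in both fractions. In total RNA it was 43.2 to 49.2 CPM in control against 33.8 to 39.8 in knockout. In the granule fraction it was 28.9 to 33.1 against 18.6 to 18.8 CPM. The single markers differed: Tubb3 was lower in knockout in total RNA but higher in granule, at 4.0 and 4.54 against 9.29 and 7.45 CPM. Map2 overlapped in total RNA and fell from 27.4 and 22.9 to 7.82 and 8.78 CPM in the granule fraction. The summed level of endothelial markers (2 of 6) was higher in knockout in both fractions. It was 13.8 to 15.3 against 15.5 to 20.8 CPM in total RNA and 6.53 to 8.52 against 11.3 to 15.1 in granule. Kdr was higher in knockout, at 7.18 and 9.28 against 14.1 and 11.4 CPM in total RNA. Pecam1 overlapped in both fractions, at 4.84 and 4.4 against 4.67 and 2.47 CPM in total RNA. Erythroid markers (3 of 4) summed to 21.5 to 23.0 CPM in control total and 27.1 to 30.3 in knockout total. Their sums overlapped in the granule fraction, and those of muscle markers (2 of 6) overlapped in both. No marker of any list was at 0 in all libraries, and the part of these cell types in the results was not tested. In these bulk samples, fewer cells of a type and less RNA per cell cannot be told apart.

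In total RNA, 1 of the 9 genes passed the test between knockout and control: Zbp1 was 14.7-fold higher in knockout cells. Across all tested genes 0.412% were called in this comparison, 0.274% higher and 0.137% lower, where called means a Benjamini-Hochberg adjusted p under 0.05 in edgeR's quasi-likelihood test. Ifih1, Ddx58, Dhx58, Eif2ak2, Adar, Zbp1 and Tlr3 had both knockout libraries above both control libraries, against 24.4% of all tested genes, and none had both below, against 24.7%. The median log2 difference of the 9 genes was 1.73, against 0.02 for all tested genes. At an unadjusted p under 0.05 the count was 6 of 9, against 24.8% of all tested genes.

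Among the helicases, Ifih1 stood at 19.1 and 38.2 CPM in the control total libraries and at 234 and 74.1 CPM in the knockout total libraries. The knockout libraries were both higher and did not overlap the control range, but they lay 3.15-fold apart from each other. Its log2 difference was 2.42 (SE 0.55, edgeR adjusted p = 0.11). Ddx58, whose level per kilobase of exon was the higher of the pair in control cells, stood at 106 and 140 CPM in control and at 600 and 260 CPM in knockout, with a log2 difference of 1.81 (SE 0.40, edgeR adjusted p = 0.11). Both knockout libraries were again above both controls, with replicate 1 the higher. Dhx58, which lacks the signalling domains of the other helicases, stood at 35.1 and 37.0 CPM in control and at 45.4 and 132 CPM in knockout. Here replicate 2 was the higher knockout library, the ranges did not overlap, and the log2 difference was 1.29 (SE 0.46, edgeR adjusted p = 0.16).

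Eif2ak2, the translation-blocking kinase, stood at 27.8 and 53.2 CPM in control total and at 189 and 78.7 CPM in knockout total. Both knockout libraries were above the controls, and the log2 difference was 1.73 (SE 0.46, edgeR adjusted p = 0.14). Adar was the steadiest of the 9 genes in control cells, at 167 CPM in both libraries, and stood at 170 and 321 CPM in knockout. Knockout replicate 1 was thus barely above the controls, and the log2 difference was 0.55 (SE 0.32, edgeR adjusted p = 0.30).

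Zbp1, the Z-RNA sensor, stood at 11.1 and 14.0 CPM in control total and at 209 and 159 CPM in knockout total. Its knockout replicates were close to each other and far above both controls, and the log2 difference was 3.88 (SE 0.30, edgeR adjusted p = 0.013). Tlr3, the endosomal sensor, had the lowest level per kilobase of the 9 in control cells, with CPM of 5.55 and 11.4, and stood at 109 and 32.0 CPM in knockout. The ranges did not overlap, and the log2 difference of 3.05 (SE 0.60, edgeR adjusted p = 0.078) was the second in size after that of Zbp1. The call of Zbp1 did not survive the loss of 1 library from the controls or the granule groups. Every other call in total RNA was lost in these fits too. The log2 difference of Zbp1 stayed between 3.67 and 4.17 without any 1 library.

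Mavs, the adaptor, stood at 43.0 and 33.4 CPM in control total and at 47.0 and 40.7 CPM in knockout total. These ranges overlapped, with a log2 difference of 0.20 (SE 0.26, edgeR adjusted p = 0.65). Irf3, the transcription factor downstream of Mavs, stood at 50.7 and 39.4 CPM in control and at 17.0 and 52.4 CPM in knockout. The knockout libraries lay on both sides of the controls, and the log2 difference was -0.38 (SE 0.47, edgeR adjusted p = 0.62).

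**Figure D1:**
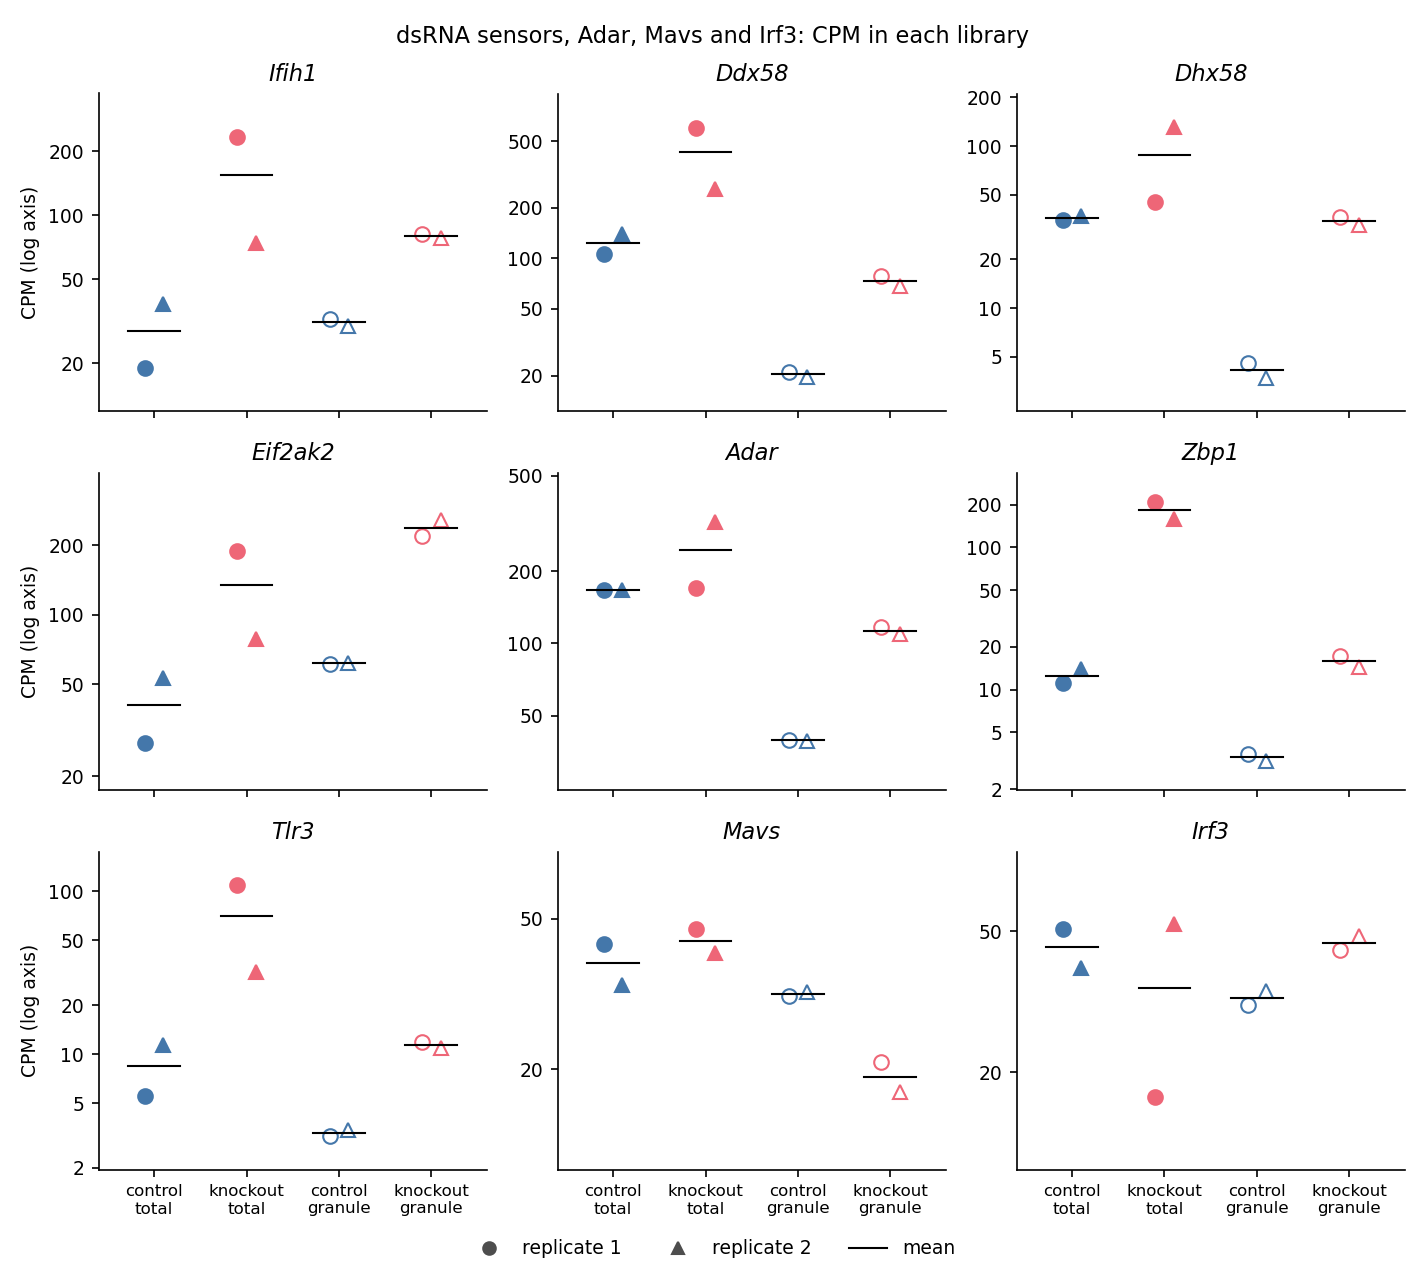
Level of each of the 9 genes in each library in CPM, on a log axis with its own range per panel, for the 4 groups (blue control, red knockout, filled total RNA, open granule fraction); circles are replicate 1, triangles replicate 2 and lines the group mean. The knockout total replicates lie far apart for Ifih1 (234 and 74.1 CPM) and Irf3 (17.0 and 52.4 CPM), while both granule groups are tight.

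The disagreement between the knockout total replicates followed the GC content of the transcripts. The members richest in A and T were high in replicate 1: Tlr3, whose longest transcript has 40.0% GC, had a log2 ratio of replicate 1 to replicate 2 of 1.76, Ifih1 (42.8% GC) one of 1.66, Eif2ak2 (43.9% GC) one of 1.27 and Ddx58 (46.6% GC) one of 1.21. The GC-rich members were high in replicate 2, with a log2 ratio of -0.92 for Adar (53.4% GC), -1.53 for Dhx58 (53.9% GC) and -1.63 for Irf3 (56.7% GC). Zbp1 (51.0% GC) and Mavs (53.9% GC) were the most alike in the 2 replicates, at 0.39 and 0.21. The Spearman correlation between GC content and this log2 ratio was -0.95 over the 9 genes and -0.585 over 18694 tested genes. In control total the relation ran the other way, with a Spearman correlation of 0.967 over the 9 genes and 0.486 over all, and Tlr3, Ifih1 and Eif2ak2 were lower in replicate 1. In the control and knockout granule groups no member differed by more than 2-fold between replicates, against 6 members in knockout total and 2 in control total. These correlations are across genes that share the same 2 libraries and are given as a description.

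**Figure D2:**
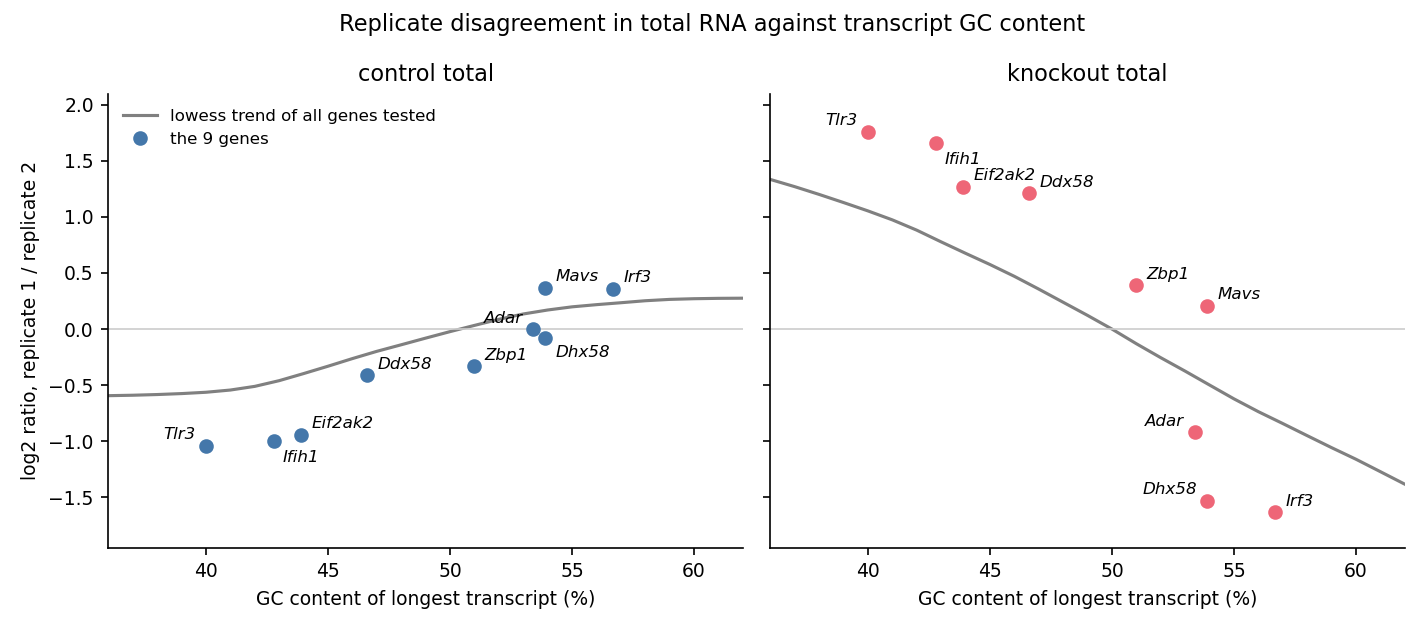
Log2 ratio of replicate 1 to replicate 2 in total RNA (vertical axis) against the GC content of the longest transcript in percent (horizontal axis) for control (left) and knockout (right); points are the 9 genes and the grey line the lowess trend of all tested genes. In knockout the AT-rich Tlr3 is at 1.76 and the GC-rich Irf3 at -1.63, and in control the slope is the opposite.

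With the GC trend of each library removed, 6 of the 9 genes were called in total RNA, against 3.7% of all tested genes: Ifih1, Ddx58, Dhx58, Eif2ak2, Zbp1 and Tlr3. Their log2 differences under that setting were 1.76 (SE 0.31) for Ifih1, 1.50 (SE 0.28) for Ddx58, 1.56 (SE 0.32) for Dhx58, 1.19 (SE 0.26) for Eif2ak2, 4.02 (SE 0.27) for Zbp1 and 2.19 (SE 0.29) for Tlr3, with edgeR adjusted p between 0.0025 and 0.050. The DESeq2 Wald test called the same 6 genes without that step, and 12.0% of all tested genes. The differences of the 4 AT-rich genes were thus smaller than before and that of Dhx58 larger, each with a smaller standard error. Adar had 0.84 (SE 0.21, edgeR adjusted p = 0.064). Irf3 changed sign to 0.04. The size also differed by the knockout replicate used for most members, and leaving out either one gave 6 calls: Ifih1, Ddx58, Zbp1 and Tlr3 both times, Dhx58 and Adar without replicate 1, and Eif2ak2 and Irf3 without replicate 2. Of all tested genes 5.52% were called without replicate 1 and 47.8% without replicate 2, so the second count is near the share over all genes. Without knockout total replicate 1, Ifih1 had a log2 difference of 1.37, Dhx58 one of 1.87 and Irf3 one of 0.22, and without replicate 2 these were 3.13, 0.44 and -1.30. Zbp1 moved least among the genes with a difference above 1, from 3.67 to 4.17.

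**Figure D3:**
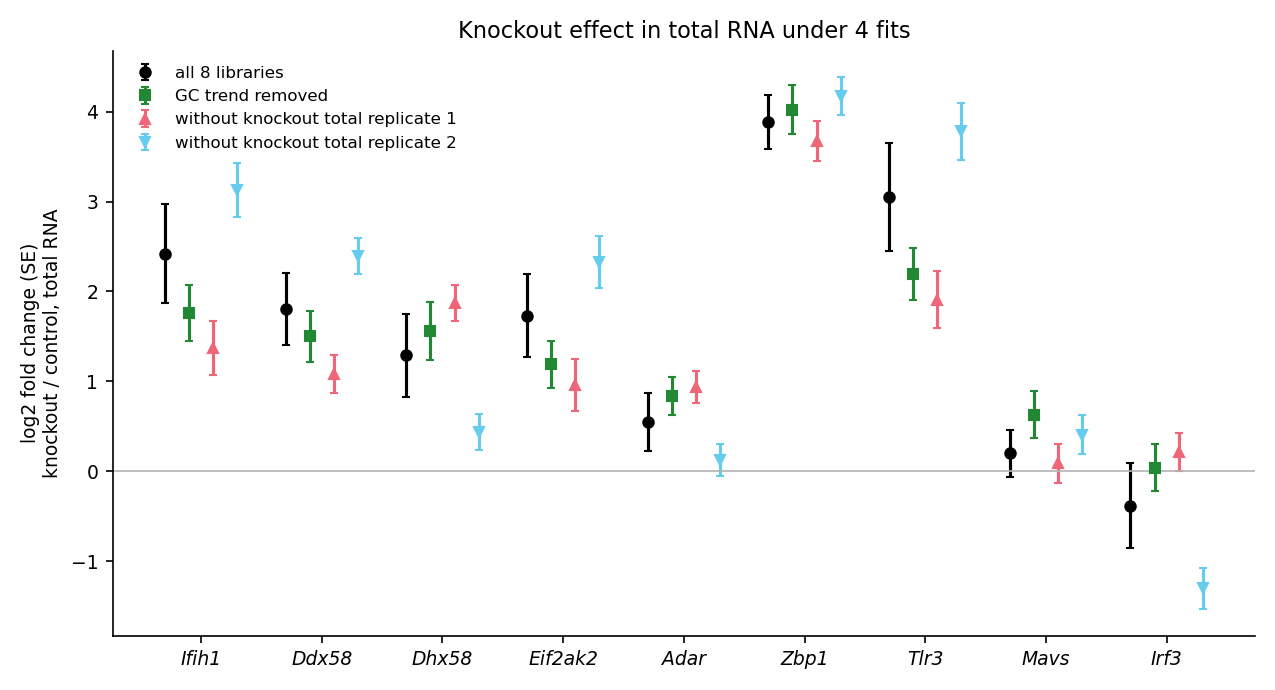
Log2 fold change of knockout over control in total RNA with its standard error (vertical axis) for each gene, from all 8 libraries (black), with the GC trend removed (green), without knockout total replicate 1 (red) and without replicate 2 (blue). Zbp1 stays between 3.67 and 4.17, while Irf3 runs from -1.30 to 0.22.

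In the granule fraction, 5 of the 9 genes rose in knockout cells: Dhx58, Zbp1, Eif2ak2, Ddx58 and Adar, from 2.87-fold for Adar to 8.36-fold for Dhx58. Of all tested genes, 9.45% were called in this comparison, 5.79% higher and 3.66% lower. Of the 9 genes, 8 had both knockout libraries above both control libraries, against 40.4% of all tested genes, and Mavs alone had both below, against 36.6%. The median log2 difference of the 9 genes was 1.79, against 0.08 for all tested genes, and 8 of 9 had an unadjusted p under 0.05, against 27.9% of all.

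Dhx58 showed the largest difference of the 9, from 4.56 and 3.71 CPM in the control granule libraries to 36.6 and 32.6 CPM in the knockout granule libraries. The replicates were close and the groups far apart, with a log2 fold change of 3.06 (SE 0.49, edgeR adjusted p = 0.013). Ddx58 stood at 21.1 and 19.7 CPM in control and rose to 78.2 and 68.8 CPM in knockout, a log2 fold change of 1.85 (SE 0.40, edgeR adjusted p = 0.032). Ifih1, the other signalling helicase, stood at 32.5 and 30.1 CPM in control and at 81.7 and 78.1 CPM in knockout. Its groups did not overlap and were each tight, yet the difference of 1.35 was not called (SE 0.54, edgeR adjusted p = 0.15). In this fit the spread is estimated over all 4 groups, the knockout total pair included.

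Eif2ak2, which had the highest level per kilobase of exon of the 9 in both granule groups, stood at 61.3 and 61.7 CPM in control and 219 and 257 CPM in knockout. It rose by 1.95 on the log2 scale (SE 0.47, edgeR adjusted p = 0.041), with every knockout library above every control library. Adar stood at 39.6 and 39.1 CPM in control and at 117 and 109 CPM in knockout, with a log2 fold change of 1.52 (SE 0.33, edgeR adjusted p = 0.030). The sensor kinase and the editing enzyme were therefore both higher in knockout granule libraries, with no overlap of the groups for either.

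Zbp1 stood at 3.53 and 3.14 CPM in control granule and at 17.1 and 14.5 CPM in knockout granule, and rose by 2.24 on the log2 scale (SE 0.29, edgeR adjusted p = 0.0069). Tlr3 stood at 3.13 and 3.43 CPM in control and at 11.8 and 10.9 CPM in knockout. Its groups did not overlap, and the log2 difference of 1.79 missed the threshold (SE 0.57, edgeR adjusted p = 0.090). Mavs stood at 31.3 and 32.1 CPM in control and at 20.9 and 17.4 CPM in knockout, the only member with lower knockout libraries, with a log2 difference of -0.73 (SE 0.27, edgeR adjusted p = 0.12). Irf3 stood at 30.9 and 33.9 CPM in control and at 44.2 and 48.4 CPM in knockout, a log2 difference of 0.52 (SE 0.47, edgeR adjusted p = 0.51). The adaptor and the transcription factor thus had the smallest differences in size among the members, in opposite directions. Whether this is related to induction by interferon was not tested.

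The number of granule calls depended on the libraries in the fit. With only the 4 granule libraries all 9 genes were called, where 57.3% of all tested genes were, Mavs at -0.72 (edgeR adjusted p = 9.1e-05) and Irf3 at 0.52 (edgeR adjusted p = 0.00078) among them. Without knockout total replicate 1, 9 genes were called, against 39.0% of all tested genes, and without knockout total replicate 2, 8, against 38.9%. Without any 1 of the 4 granule libraries the member calls were lost, as were nearly all calls over all tested genes. Without either control total library fewer members, and fewer genes in all, were called than from all 8 libraries. The log2 differences moved little, that of Dhx58 between 2.86 and 3.15 and that of Mavs between -0.92 and -0.61 without any 1 library.

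In control cells, 4 of the 9 genes were lower in the granule fraction than in total RNA and none was higher: Ddx58, Dhx58, Adar and Zbp1. Of all tested genes, 10.1% were called in this comparison, 5.89% higher and 4.17% lower. Ddx58 fell by 2.59 on the log2 scale (SE 0.41), Dhx58 by 3.12 (SE 0.49) and Adar by 2.09 (SE 0.33), each with an edgeR adjusted p = 0.013, and Zbp1 fell by 1.91 (SE 0.28, edgeR adjusted p = 0.011). In the CPM values above, both granule libraries of each of these lay below both total libraries. The other helicase, Ifih1, had a log2 difference of 0.13 (SE 0.53, edgeR adjusted p = 0.89), with its granule libraries inside the range of the total libraries. Eif2ak2 was the only member with both granule libraries above both total libraries, with a log2 difference of 0.60 (SE 0.45, edgeR adjusted p = 0.40). Tlr3 (-1.37, SE 0.57), Mavs (-0.27, SE 0.26) and Irf3 (-0.48, SE 0.47) had edgeR adjusted p from 0.15 to 0.53. Both granule libraries lay below both total libraries for 7 of the 9 genes and above for 1, against 37.3% and 35.2% of all tested genes, and 5 of 9 had an unadjusted p under 0.05, against 30.0% of all. The median of the 9 genes was -1.37, against -0.06 for all tested genes. Without any 1 of the 4 control libraries the member calls were lost, as were nearly all calls over all tested genes. Such a fit leaves 1 library in a group. The log2 differences of the 4 genes then lay between -3.23 and -1.69.

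In knockout cells, 5 of the 9 genes were lower in the granule fraction and none was higher: Ddx58, Adar, Zbp1, Tlr3 and Mavs, where 17.6% of all tested genes were called, 9.17% higher and 8.47% lower. The groups lay apart in the lower direction for 6 of the 9 genes and in the higher for 1, against 26.5% and 31.5% of all tested genes, and 6 of 9 had an unadjusted p under 0.05, against 34.3% of all. Zbp1 fell by 3.54 on the log2 scale (SE 0.30, edgeR adjusted p = 0.0021), the strongest granule to total difference of the 9 genes. Tlr3 fell by 2.63 (SE 0.59, edgeR adjusted p = 0.023), Ddx58 by 2.55 (SE 0.41, edgeR adjusted p = 0.0078), Mavs by 1.20 (SE 0.27, edgeR adjusted p = 0.022) and Adar by 1.12 (SE 0.32, edgeR adjusted p = 0.049). Adar was at the threshold and lost its call with library size alone as the scaling (edgeR adjusted p = 0.082). It also lost it with a mean of at least 5 CPM (edgeR adjusted p = 0.062), the replicate block (0.091) and only the groups compared (0.18). Voom did not call it either (adjusted p = 0.11). Median-of-ratios scaling, DESeq2, no count filter and removal of the GC trend kept the call. The call was not kept without control total replicate 1 or 2, where the log2 difference of Adar was -1.12 or -1.19. Dhx58 had a log2 difference of -1.36 (SE 0.46, edgeR adjusted p = 0.076). Eif2ak2 again had both granule libraries above both total libraries, by 0.83 (SE 0.45, edgeR adjusted p = 0.24). The granule and total ranges of Ifih1 (-0.94, SE 0.53) and Irf3 (0.42, SE 0.47) overlapped. With the GC trend removed, Eif2ak2 was called higher in the granule fraction (1.02, SE 0.26, edgeR adjusted p = 0.020). Dhx58 was then called lower (-1.48, SE 0.32, edgeR adjusted p = 0.011), where 31.9% of all tested genes were called. The log2 difference of Eif2ak2 was 1.59 without knockout total replicate 1 and 0.2 without replicate 2. Without either knockout granule library most calls were lost, among the members as over all tested genes. The log2 difference of Zbp1 was -3.75 without knockout granule replicate 1. Without either control granule library fewer members, and fewer genes in all, were called than from all 8 libraries. The log2 differences of Ddx58, Zbp1 and Tlr3 were then -2.65, -3.64 and -2.74. With only the 4 knockout libraries no member was called, where 0.0% of all tested genes were. The smallest edgeR adjusted p of a member was then 0.066.

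The interaction term asks whether the knockout to control ratio differed between the fractions, and none of the 9 genes passed it, where 0.517% of all tested genes did, 0.401% higher and 0.116% lower. At an unadjusted p under 0.05 the count was 3 of 9, against 25.8% of all: Zbp1, Dhx58 and Mavs. Zbp1 had the smallest adjusted p, with a log2 term of -1.63, its knockout difference being the smaller in the granule fraction (SE 0.39, edgeR adjusted p = 0.090). Dhx58 leaned the other way at 1.77 (SE 0.64, edgeR adjusted p = 0.15), as did Adar at 0.97 (SE 0.45, edgeR adjusted p = 0.22), and Mavs stood at -0.93 (SE 0.37, edgeR adjusted p = 0.17). For Ddx58 (0.04, SE 0.55) and Eif2ak2 (0.23, SE 0.64) the knockout differences in the 2 fractions were nearly equal, with standard errors that leave a wide interval. The DESeq2 Wald test called Zbp1 in the interaction (adjusted p = 0.0041), voom called Dhx58 (adjusted p = 0.045), and edgeR with the GC trend removed called Zbp1 (adjusted p = 0.023) and Mavs (adjusted p = 0.040). Without knockout total replicate 1 edgeR called Dhx58 and Zbp1, and without replicate 2 it called 7 of the 9, all but Ddx58 and Eif2ak2. Of all tested genes, these settings called 14.0% with DESeq2, 3.92% with voom, 9.98% with the GC trend removed, 18.6% without replicate 1 and 46.4% without replicate 2.

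**Figure D4:**
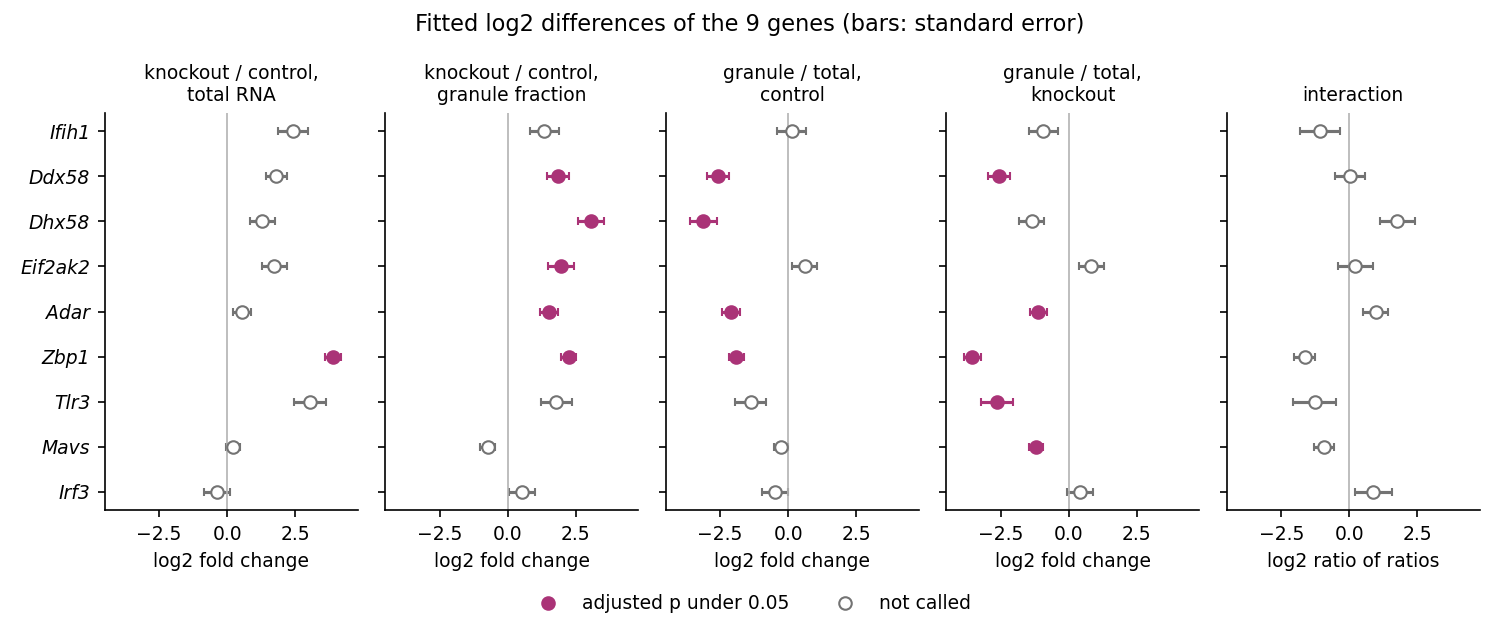
Fitted log2 difference of each gene with its standard error (horizontal axis) in the 4 comparisons and the interaction; filled points passed an adjusted p under 0.05. In the granule fraction 5 genes are filled on the right of 0, in total RNA Zbp1 alone, and in the 2 granule to total panels 4 and 5 genes are filled on the left of 0.

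The order of the genes by level per kilobase of exon differed between groups. In control total it was Adar (20.6 CPM per kilobase), Ddx58 (17.4), Irf3 (13.1), Mavs (11.4), Dhx58 (11.0), Eif2ak2 (7.92), Zbp1 (3.55), Ifih1 (3.51) and Tlr3 (1.63), where Irf3 and Mavs, Mavs and Dhx58, and Zbp1 and Ifih1 had overlapping replicates. In knockout total the first places were held by Ddx58 (61.0) and Zbp1 (52.2), whose replicates overlapped, and below Zbp1 every neighbour from Adar (30.2) to Irf3 (10.1) overlapped the next. In control granule Eif2ak2 led with 12.0 CPM per kilobase, followed by Mavs (9.47) and Irf3 (9.42), which overlapped, and Adar (4.85), Ifih1 (3.84), Ddx58 (2.89), Dhx58 (1.26), Zbp1 (0.945) and Tlr3 (0.629), none of which overlapped its neighbour. In knockout granule Eif2ak2 at 46.6 CPM per kilobase stood far above Adar (13.9), whose replicates overlapped those of Irf3. Dhx58 (10.6), Ddx58 (10.4) and Ifih1 (9.79) came next with overlapping neighbours, and Mavs (5.72), Zbp1 (4.47) and Tlr3 (2.18) were last. Thus Zbp1 held the second place in knockout total and the eighth in both granule groups, and Eif2ak2 went from the sixth place in control total to the first in both granule groups. Per kilobase of the longest transcript Irf3 (16.0) stood above Eif2ak2 (14.3) in control granule, and Eif2ak2 led in knockout granule alone.

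Because Adar edits the RNA that the sensors bind, the level of each sensor was also set against Adar within the same library, as the log2 ratio of CPM per kilobase. Zbp1 stood at -2.71 and -2.38 relative to Adar in control total and at 1.50 and 0.19 in knockout total, so its mRNA went from below to above that of Adar per kilobase of exon. Per kilobase of the longest transcript it remained below Adar in knockout total replicate 2 (47.9 against 54.3 CPM per kilobase). In the granule fraction it stayed below, at -2.29 and -2.44 in control and -1.58 and -1.71 in knockout. Eif2ak2 was below Adar in control total (-1.92 and -0.98) and on either side of it in knockout total (0.83 and -1.36). It was above Adar in all 4 granule libraries, at 1.30 and 1.32 in control and 1.57 and 1.91 in knockout. Ifih1 kept nearly the same ratio to Adar in the granule fraction, at -0.29 and -0.38 in control and -0.53 and -0.49 in knockout. In total RNA its values were -3.14 and -2.14 in control and 0.45 and -2.12 in knockout, so that 1 knockout replicate was level with the upper control.

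The ratio of Dhx58 to Adar was higher in knockout in both fractions, by 0.62 in total RNA and 1.55 in the granule fraction on the log2 scale, with no overlap. For Ddx58 the difference was 1.22 with overlap in total RNA and 0.33 without overlap in the granule fraction, and for Tlr3 it was 2.41 and 0.27, neither with overlap. Mavs had a ratio to Adar of 0.94 and 0.99 in control granule and of -1.21 and -1.37 in knockout granule. It was thus above Adar in control granule libraries and below it in knockout granule libraries, a difference of -2.26. Irf3 had a lower ratio to Adar in knockout in both fractions, by -1.07 and -1.01. These within-library ratios carry no test. They do not depend on the scaling between libraries, but those in total RNA carry the difference in GC content between the genes.

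**Figure D5:**
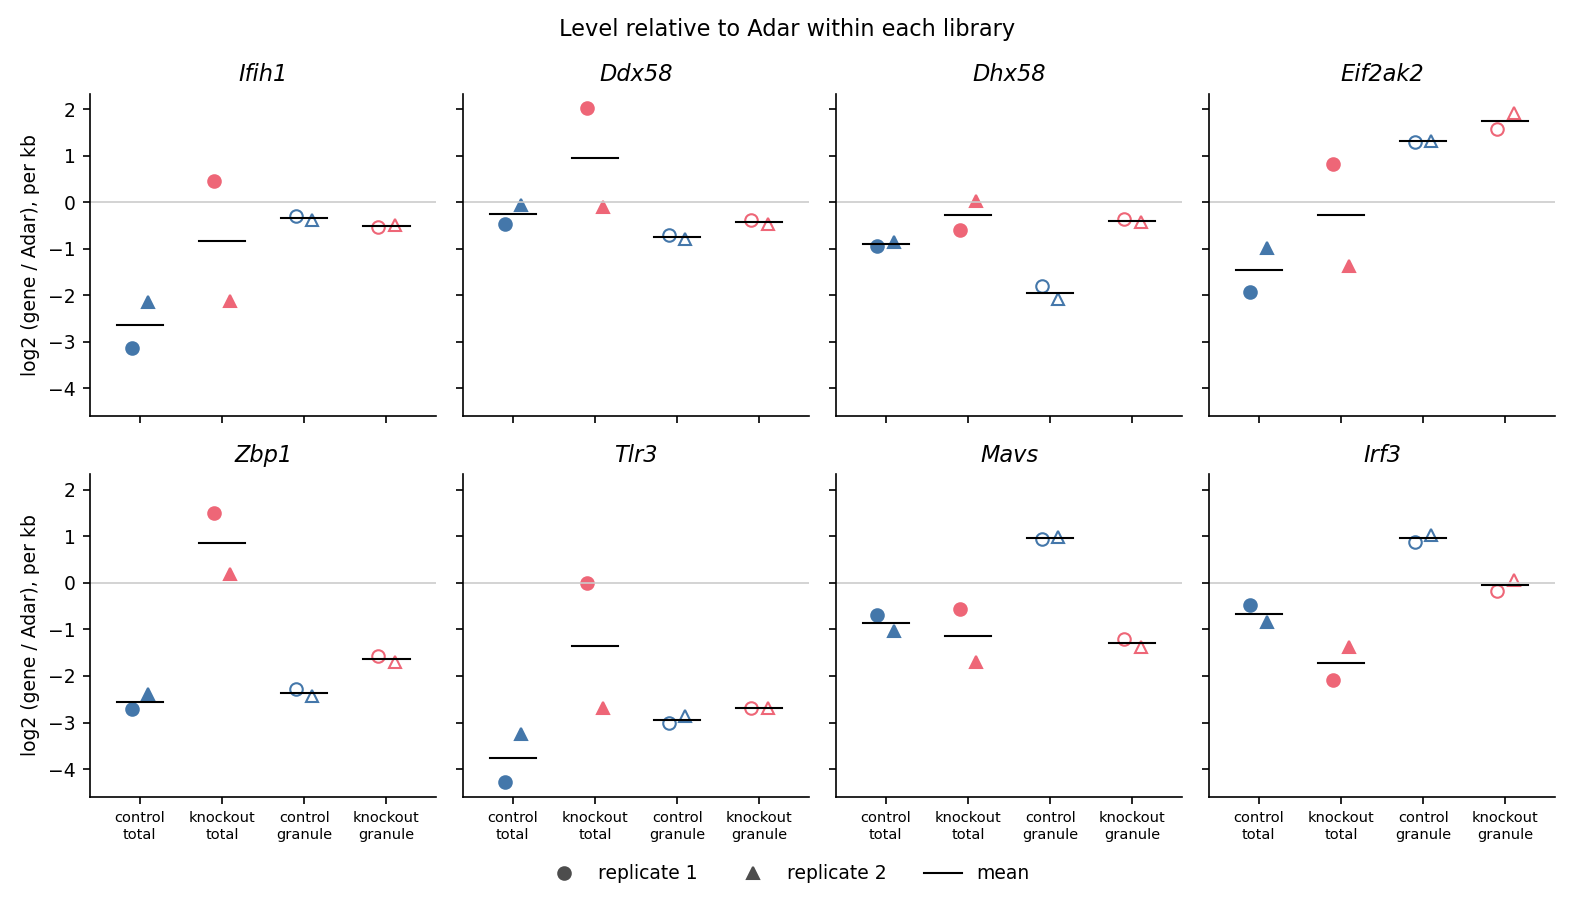
Log2 ratio of each gene to Adar in CPM per kilobase (vertical axis) within each library, for the 4 groups, with circles for replicate 1, triangles for replicate 2 and lines for the mean. Eif2ak2 is above 0 in all 4 granule libraries, and Mavs goes from about 1 in control granule to -1.21 and -1.37 in knockout granule.

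Other genes of these pathways were counted from fixed lists, as described with the processing. Of 10 genes of the OAS and RNase L branch, whose enzymes make 2′-5′ oligoadenylate on double-stranded RNA and thereby switch on RNA cleavage, 9 rose in knockout cells in the granule fraction and 2 in total RNA, and none fell in either. The tenth, Abce1, an inhibitor of RNase L named after its values were seen, went the other way in the granule fraction without passing the test, from 285 and 277 CPM in control to 99.3 and 98.0 CPM in knockout. The median log2 difference of the list was 2.54 in the granule fraction and 1.14 in total RNA. Oas2 stood at 36.5 and 47.0 CPM in control total and at 260 and 231 CPM in knockout total, with a log2 fold change of 2.55 (SE 0.26, edgeR adjusted p = 0.024), and Oas3 had one of 2.26 (SE 0.27, edgeR adjusted p = 0.027). Like Zbp1, both had knockout total replicates close to each other. In the granule fraction Oas1a rose from 4.97 and 3.89 CPM to 77.5 and 87.4 CPM, but the Oas1 genes are near-identical copies between which reads may have been split, so their single values are uncertain. In control cells 8 of the 10 were lower in the granule fraction than in total RNA and in knockout cells 6 of 10.

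Of 16 interferon-response factors and indicator genes, 10 rose in knockout cells in the granule fraction and 3 in total RNA, with none lower in either. The 3 in total RNA were Mx1, an antiviral GTPase (log2 fold change 2.59, SE 0.38, edgeR adjusted p = 0.040), Ifit3, which belongs to a family that binds foreign RNA (2.49, SE 0.32, edgeR adjusted p = 0.032), and Stat2, which carries the interferon signal to the nucleus (1.59, SE 0.24, edgeR adjusted p = 0.041). In the granule fraction Isg15, a ubiquitin-like modifier, went from 33.3 and 31.3 CPM to 453 and 459 CPM, and Mx2 from 2.87 and 2.86 CPM to 43.6 and 42.8 CPM. In both genotypes 12 of the 16 were lower in the granule fraction than in total RNA. Interferon mRNA itself was scarce: Ifnb1 stood at 0.485 and 0.604 CPM in control total, 0.647 and 1.63 CPM in knockout total, and at 0.155 CPM or less in the granule libraries. Of 10 tested interferon and receptor genes, none was called between knockout and control in either fraction by edgeR's test. An unadjusted p under 0.05 was seen for 3 in total RNA and 4 in granule, against 24.8% and 27.9% of all genes.

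Among 25 genes of the RIG-I-like receptor pathway other than the members, 3 rose and 2 fell in knockout cells in the granule fraction. None was called in total RNA, where 10 had an unadjusted p under 0.05, against 24.8% of all tested genes. Irf7, the interferon-induced relative of Irf3, had 8.87 and 8.19 CPM in control granule and 212 and 210 CPM in knockout granule, and rose by 4.63 on the log2 scale (SE 0.41, edgeR adjusted p = 0.0030). Trim25, a ubiquitin ligase that acts on RIG-I, rose by 1.47 (SE 0.26, edgeR adjusted p = 0.017) and Nlrc5 by 1.33 (SE 0.32, edgeR adjusted p = 0.044). Mex3c, an RNA-binding ubiquitin ligase, fell by 1.62 (SE 0.37, edgeR adjusted p = 0.035), and Mfn2, a mitochondrial fusion protein named after its values were seen, fell by 1.22 (SE 0.25, edgeR adjusted p = 0.026). The median of this list was 0.10 in the granule fraction, near that of all tested genes.

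The remaining lists held few calls between knockout and control. Of 19 tested genes of the PKR branch and other double-stranded RNA-binding proteins, Adarb1, which encodes the second editing enzyme ADAR2, was the 1 called in the granule fraction. It stood at 105 and 88.3 CPM in control granule and at 43.3 and 50.2 CPM in knockout granule and fell by 1.05 (SE 0.25, edgeR adjusted p = 0.038), while Adar rose there. None of these 19 was called in total RNA, where 7 had an unadjusted p under 0.05, against 24.8% of all tested genes. None of the 8 necroptosis partners of Zbp1 was called between genotypes in either fraction. An unadjusted p under 0.05 was seen for 3 in total RNA and 1 in granule, against 24.8% and 27.9% of all genes. Mlkl, the executor of necroptosis, fell by 2.23 on the log2 scale from total RNA to the granule fraction of knockout cells (SE 0.40, edgeR adjusted p = 0.011), with 275 and 123 CPM in knockout total against 41.5 and 43.2 in knockout granule. In control cells Mlkl stood at 36.6 and 50.3 CPM in total RNA and at 37.3 and 37.2 in the granule fraction. Its granule levels were thus close in the genotypes, and its knockout total replicates lay apart. Of 7 endosomal trafficking and receptor genes, Scara3 and Unc93b1, which brings Tlr3 to endosomes, rose in the granule fraction, by 1.37 (SE 0.26) and 1.22 (SE 0.29). Of 7 genes of cytosolic DNA sensing, Ifi203 rose there by 2.41 (SE 0.59, edgeR adjusted p = 0.042).

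The genes whose log2 CPM over the 8 libraries were most like those of each member were sought among 9989 genes averaging 5 CPM or more. For Dhx58 these were Uba7 (Pearson's r = 0.996), Isg15 (0.994) and Psmb9 (0.994), and for Adar they were Shisa5 (0.997), Tap1 (0.995) and Psmb9 (0.992). Ddx58 was most like Ube2l6 (0.995), Tmem106a (0.992) and Fam129a (0.991), and Tlr3 most like Rbm43 (0.990), Phf11d (0.989) and Ifi207 (0.988). The closest to Zbp1 were Gfra1 (0.994), Gla (0.991) and Isg20 (0.987). Ifih1 was closest to Zfp608 (0.996), Eif2ak2 to Dnajc25 and Tgoln1 (0.984 each), Mavs to Mcm3 (0.996) and Irf3 to Lrfn3 (0.993). Between members, Dhx58 and Adar (0.981) and Zbp1 and Tlr3 (0.962) were the most alike, and Eif2ak2 and Mavs (-0.583) the least. These correlations rest on 4 groups of 2 libraries with shared depth and GC differences and are descriptions only.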

How the data were processed

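RNA sequencing counts of 8 libraries were analysed as deposited. The authors deposited raw whole-number counts per Ensembl gene, 1 column per library, not normalized and not pooled. Per the submitters' processing notes, STAR, DESeq2 and the builds GRCm38 and mm10 were named, with no role or version, and the counting program and strand setting are not given in the sources used here. Columns were joined to samples by title. Identifiers without a match in GENCODE M21 held 0.178% to 0.255% of a library's counts. Poly(A) selection and sequencing are per the labels' protocols.

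In R 4.3.3, edgeR 4.0.16 fitted 1 mean per group to all 8 libraries (robust quasi-likelihood F-test, TMM scaling, its expression filter), leaving 4 residual degrees of freedom. Multiple testing was handled with the Benjamini-Hochberg method over 18952 genes, and genes under 0.05 are called. The p-values measure the spread between these samples, 2 per group. CPM values use TMM-scaled library sizes, log2 CPM a prior count of 2, and standard errors come from the F statistic. Alternatives used DESeq2 1.42.0, voom in limma 3.58.1 with a quality weight per library, other scalings and filters, a fold change limit, only the groups compared, a replicate block, removal of each library's GC trend (lowess, span 0.3) and leaving out each library. GC content is that of the longest GENCODE transcript, since no genome sequence was used. The fit was tested on simulated data.

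All 9 members and Mettl3 were always named. Of each pathway list, up to 4 called genes per comparison with a mean of at least 1 CPM and the largest differences were named where space allowed, as were 3 genes of like pattern per member. Members and lists were chosen with earlier results of these data known.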

Additional observations from a re-analysis of the deposited data

How the results depend on the processing

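Of 765 member values recomputed under an alternative setting, 592 kept their direction and side of the threshold, 78 gained and 78 lost a call, and 17 changed sign. In the order control granule to total, knockout granule to total, knockout to control in total RNA, in the granule fraction, and interaction, 4, 5, 1, 5 and 0 members were called. Leaving out 1 library gave 0 to 6, 1 to 7, 0 to 6, 0 to 9 and 0 to 7. Voom gave 3 in knockout granule to total, 9 in the granule fraction and 1 in the interaction. It called 5.69%, 55.2% and 3.92% of all tested genes there. DESeq2 gave 6 in total RNA and 1 in the interaction, against 12.0% and 14.0% of all tested genes. Without a filter on low counts there were 6 in total RNA and 2 in the interaction, against 11.2% and 11.5% of all. Removing the GC trend gave 6 in total RNA, 8 in the granule fraction and 2 in the interaction. The shares of all genes there were 3.7%, 23.7% and 9.98%. Using only the groups compared gave 0 in knockout granule to total, 0 in total RNA and 9 in the granule fraction. Of all genes, 0.0%, 0.0% and 57.3% were called there. The causes were not tested.

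The replicate block gave 0 members in total RNA and 2 in the granule fraction, against 0.0% and 3.54% of all tested genes. The deviations of same-numbered replicates had Pearson's r over genes from -0.254 to 0.0954. In total RNA these deviations followed GC content in opposite directions in control and knockout. The correlation therefore cannot show whether same-numbered replicates share more than a number. Crossing the numbers, chosen after seeing the data, left 1 member called in total RNA and 94 genes in all.

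No value whose sign was opposite to that of the fit to all libraries was called. At the other end of the ranges, without knockout total replicate 2, Ifih1 and Irf3 were called in knockout granule to total and Irf3 in total RNA. Ifih1, control granule to total, had -0.01 with library size alone, -0.00063 with a mean of at least 5 CPM, -0.41 with the GC trend removed and -0.28 to 0.76 without 1 library, and Mavs had 0.05 with the GC trend removed. Without 1 library, Ifih1 had -1.68 to 0.10 and Irf3 -0.19 to 1.32 in knockout granule to total, and Irf3 -1.30 to 0.22 in total RNA, where the GC setting gave 0.04. In the interaction Ddx58 had -0.13 without a filter and -0.61 to 0.76 without 1 library, and Eif2ak2 -0.46 to 0.98. Library size alone moved the median of all genes from -0.06 to -0.19 in control granule to total and from 0.09 to 0.28 in the interaction.

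Over all genes the counts called moved too, from 1906 to between 581 and 7448, from 3343 to between 0 and 6037, from 78 to between 0 and 3407, from 1791 to between 670 and 10454 and from 98 to between 0 and 3476. Leaving out 1 library gave 0 to 8118, 243 to 9707, 0 to 9627, 0 to 7834 and 0 to 9349. The lowest count of a member in any library was 322.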
